A study of Mus musculus with 24 samples.

Results

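The response of wild-type bone marrow-derived macrophages (BMDMs) to Kdo2-lipid A (KLA), a lipid A preparation that acts on Toll-like receptor 4, was described from 8 of the 24 libraries of the series. The members were chosen by their labels: all BMDM libraries of wild-type mice, 4 without KLA (0 h) and 4 after 6 h of KLA. They came from 2 cohorts, the control animals of the Tdg knockout experiment (Tdg cohort) and those of the Tet triple knockout experiment (Tet cohort), with 2 libraries at each time in each cohort. All mice were adult animals on the C57BL/6 background, labelled wild type, and control mice had received tamoxifen as the Cre-carrying mice did. Whether the wild-type animals carried floxed alleles without Cre is not given in the sources used here. The cells had been grown out of bone marrow in medium conditioned by L929 cells, a source of the macrophage growth factor M-CSF, with added M-CSF, and the adherent cells were plated again before KLA was added. Nothing in the labels says whether the libraries of a group came from separate animals, so p-values measure the spread between libraries, which may be partly technical.

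Toll-like receptor 4 recognises the lipid A part of bacterial lipopolysaccharide together with the co-receptors CD14 and MD-2. It signals through the adaptor MyD88 to NF-kB and AP-1, which switch on inflammatory cytokines and chemokines, and through the adaptor TRIF to interferon-beta, which acts back on the cell through its own receptor and switches on antiviral genes. Activated macrophages are also known for a turn towards glycolysis, for making nitric oxide, itaconate and prostaglandins, and for shutting down parts of the programme of the resting cell.

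Assigned read counts ranged from 4982950 to 21503302 per library, and 3 counts, taken as the limit of detection, made up 1.4e-05% to 6.02e-05% of a library. The 0 h library of replicate 2 in the Tdg cohort stood apart: it had the lowest total, the largest share of unassigned read pairs (46.6% against 32.8% to 42.7% in the other 7) and the lowest score on each of the first 2 principal components. Against its replicate, its differences fell with transcript length (Spearman's correlation across 11175 genes -0.303, against -0.0159 to 0.133 for the other 3 replicate pairs, a description across genes). Several interferon-related genes and other KLA-responsive genes were higher in it than in the other 0 h libraries, with values given below. Some of the calls and counts that changed when it was left out are given both ways below. Others are given with all libraries only, so a count without the alternative may have changed too. The 10 macrophage markers summed to 22554 to 30689 CPM (counts scaled to the library total) in every library. Natural killer cell markers were at 0 in all libraries and 5 of 6 erythroid markers were too. Markers of T cells, B cells, mast cells, stroma and dendritic cells summed to at most 22.3 CPM in any library, those of osteoclasts and endothelium to at most 119, and those of neutrophils and myeloid progenitors to 34.1 to 194 at 0 h and 27.2 to 235 at 6 h. The highest of these sums at each time was in Tdg replicate 1. Mpo, for example, had 492 and 471 reads there at 0 h and 6 h, against 30 and 62 in Tdg replicate 2. The part of these other cells in any result was not tested, and in bulk RNA fewer cells of a type and less RNA per cell cannot be told apart.

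To ask which genes changed after 6 h of KLA, the 8 libraries were fitted together with cohort as a term. A gene was called when its adjusted p from the DESeq2 Wald test was below 0.05. Of 11829 genes tested, 3033 were called (25.6%): 1592 were higher at 6 h (13.5%) and 1441 lower (12.2%). Changes of at least 2-fold made up 768 of the increases and 621 of the decreases. edgeR, the stricter of both tests here, called 2375 of 11151 genes (21.3%): 1227 higher (11%) and 1148 lower (10.3%). Both tests called 2372 genes in the same direction. On simulated counts DESeq2 made more false calls than its threshold of 0.05 allows. The share of false calls among the 3033 may thus exceed that threshold. Of the genes named as higher or lower, edgeR did not call Ctsb, Cxcl14 and Ppp1ca and did not test Tet1, and it called all others. Log2 fold changes are given ± SE over the 4 libraries at each time, with the adjusted p of DESeq2. Where 4 normalised counts are listed for a time, they are Tdg replicates 1 and 2 followed by Tet replicates 1 and 2. The counts of each list below stand against the 13.5% and 12.2% of all tested genes. The lists were chosen with earlier results of these data known, so their shares are descriptions. Without the 0 h library of Tdg replicate 2, 3753 of 12089 genes were called (31%), 1945 higher (16.1%) and 1808 lower (15%), and these held 2873 of the 3033. Scaling by total counts lowered the median log2 fold change of the tested genes by 0.12 and turned the split into 1180 higher and 1849 lower.

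The cohorts were also read one by one, in a fit with a KLA effect for each cohort. In the Tdg cohort 1919 of 11268 genes were called (17%), 1103 higher (9.79%) and 816 lower (7.24%), or 879 and 999 with total counts as the scaling, and in the Tet cohort 1281 of 12109 (10.6%), 716 higher (5.91%) and 565 lower (4.67%), or 586 and 654 with that scaling. The 3033 genes called in both cohorts together had the same sign in each cohort, which a joint call favours, and 2789 of them did not overlap between 0 h and 6 h within either cohort. Over all tested genes, 18.7% were higher without overlap in both cohorts and 15.9% were lower. When each cohort was fitted alone, with no library in common, 817 genes were called in the Tdg cohort and 2583 in the Tet cohort. Of the 816 Tdg calls that were tested in the Tet cohort, 814 had the same sign there and 756 (92.6%) were called there in the same direction. Of the 2550 Tet calls tested in the Tdg cohort, 2456 had the same sign and 756 (29.6%) were called. The increases called in the Tdg cohort alone had a median log2 fold change of 1.98 there and 1.59 in the Tet cohort, and the decreases -1.79 and -1.57. Those called in the Tet cohort alone had 0.86 there and 1.03 in the Tdg cohort for increases, and -0.87 and -0.81 for decreases. Genes chosen by their call in a cohort tend to show larger changes in it.

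**Figure D1:**
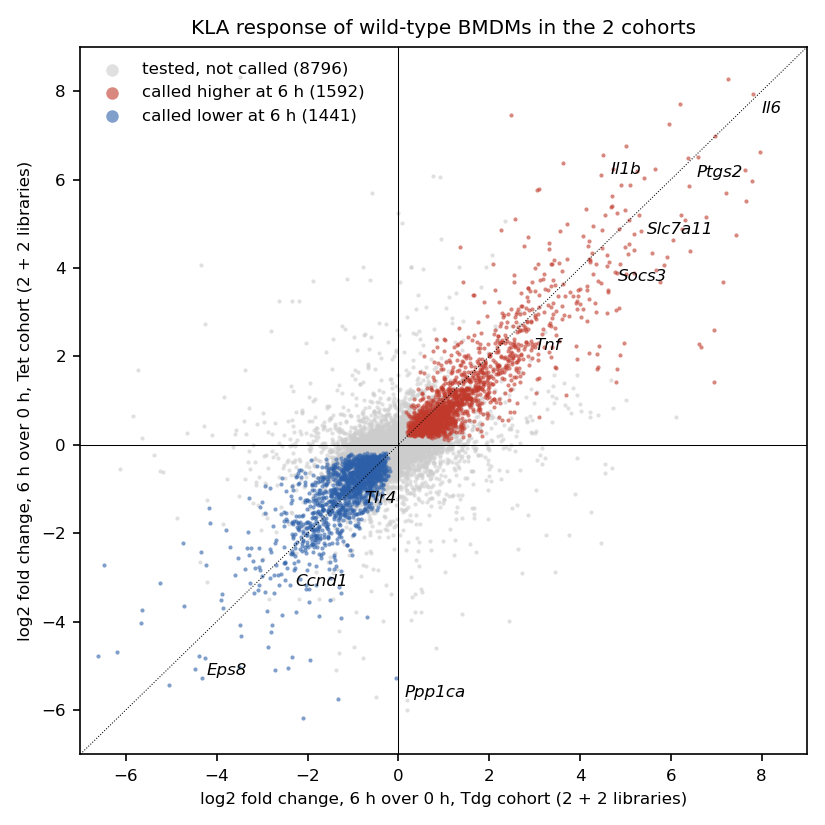
Log2 fold change (6 h over 0 h) of 11829 tested genes in the Tdg cohort (x axis) and the Tet cohort (y axis), 2 libraries at each time in each, coloured by the call in both cohorts together (1 gene lies outside the axes). The called genes lie at the upper right and lower left along the dotted line of equal change, and Ppp1ca, near 0 on the x axis and at -5.27 on the y axis, is off it.

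Of 24 listed cytokines 17 were tested, and these were the group with the largest median change (log2 fold change 2.69): 14 of 17 tested members were called higher and 0 lower. edgeR gave 12 and 0, and DESeq2 gave 13 and 0 without the 0 h library of Tdg replicate 2. Il6, the fever and acute-phase cytokine, lies at chr5:30339701-30346508 on the plus strand (mm9). It had 2.18 and 0 normalised counts at 0 h and 243 and 426 at 6 h in the Tdg cohort. Il6 in the Tet cohort had 0 and 0.56 at 0 h and 37.9 and 121 at 6 h. The 4 libraries at 0 h held 3 reads and those at 6 h 845, a ratio of 256 relative to library totals (exact 95% interval for counting error only, 87.2 to 1243). Il6 rose over both cohorts (log2 fold change 7.86 ± 0.95, adjusted p = 4.26e-15), with no overlap between times. Il1b, which encodes interleukin-1 beta (chr2:129190306-129196875, minus strand), had 166 and 167 normalised counts at 0 h and 3933 and 3604 at 6 h in the Tdg cohort. Il1b in the Tet cohort had 24 and 13.4 at 0 h and 1634 and 1802 at 6 h. Il1b rose over both cohorts (log2 fold change 5.47 ± 0.37, adjusted p = 1.98e-46). All 6 h libraries lay far above all 0 h libraries, and the resting level of the Tdg cohort was above that of the Tet cohort. Tnf, the early-acting tumour necrosis factor, was already present at 0 h and rose from 1020 ± 52.3 to 6625 ± 886 normalised counts (SD, n = 4; log2 fold change 2.69 ± 0.14, adjusted p = 2.22e-83). Per transcript length, the mean level at 6 h was 793 TPM (transcripts scaled to length and library total) for Tnf, 283 for Il1b and 37 for Il6, so the order of the levels was not the order of the fold changes.

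Il1a, which encodes interleukin-1 alpha (6.54, 15.9, 46.4 and 78.3 at 0 h and 489, 1215, 1191 and 1412 at 6 h, log2 fold change 5.20 ± 0.45), and Il12b, the p40 subunit shared by interleukin-12 and interleukin-23, also rose. Il12b had 27.3 and 0 normalised counts at 0 h and 386 and 359 at 6 h in the Tdg cohort. Il12b in the Tet cohort had 0 and 1.68 at 0 h and 31.1 and 57.7 at 6 h. Il12b rose over both cohorts (log2 fold change 5.09 ± 1.01, adjusted p = 5.66e-06), and its 6 h level was higher in the Tdg cohort. The log2 fold change was 4.33 without the 0 h library of Tdg replicate 2 and 6.52 without that of replicate 1. The members that missed the threshold were Il10 (log2 fold change 0.45), Il18 (-0.19) and Osm (-0.23), named here because they were the remainder of the list.

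**Figure D2:**
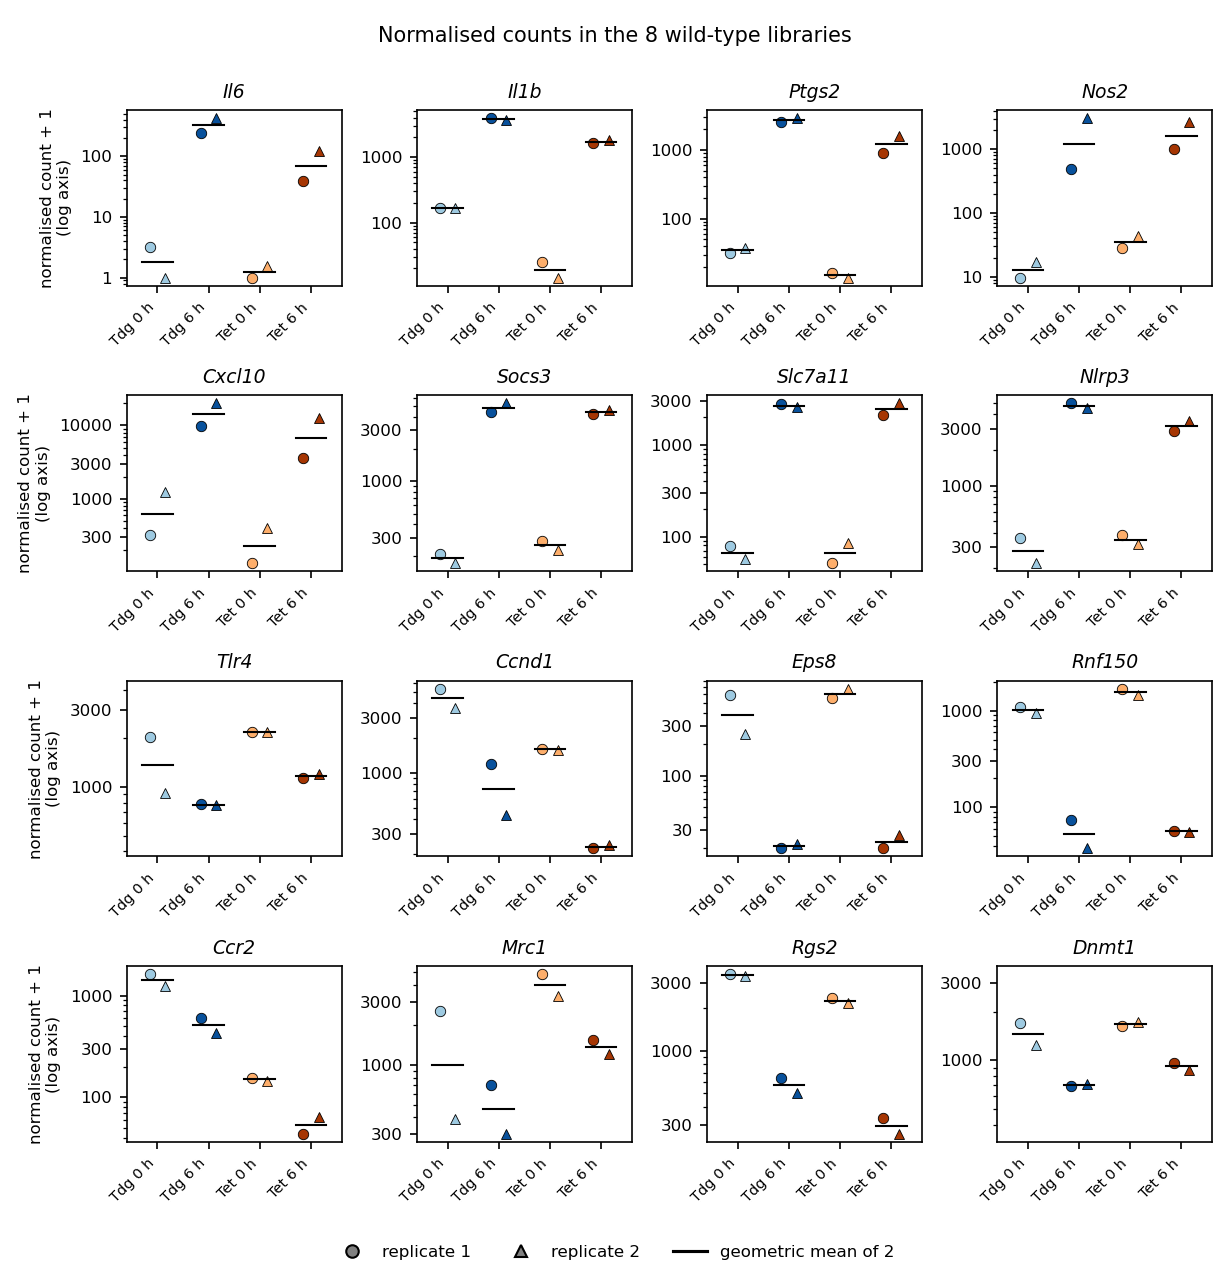
Normalised count plus 1 (log axis, scaled per panel) of 16 genes in the 8 wild-type libraries, with circles for replicate 1, triangles for replicate 2 and a bar for their geometric mean. The upper 8 genes are higher at 6 h in both cohorts and the lower 8 are lower, and the 0 h triangle of the Tdg cohort is near the 6 h points for Tlr4 and Mrc1.

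Of the CC and CXC chemokines, 10 of 20 tested members were called higher and 3 lower. edgeR gave 10 and 2, and DESeq2 gave 11 and 3 without the 0 h library of Tdg replicate 2. Among those that rose were the neutrophil attractants Cxcl2 and Cxcl3 and the T cell attractant Cxcl10. Cxcl3 rose from 4.36, 5.31, 11.6 and 17.3 to 629, 981, 319.5 and 470.0 normalised counts (log2 fold change 5.79 ± 0.49, adjusted p = 1.11e-30). Cxcl2 rose from 269, 98.3, 153 and 91.8 to 4836, 2795, 2040 and 2122 normalised counts (log2 fold change 4.22 ± 0.32, adjusted p = 2.35e-38). Neither overlapped between times. Cxcl10 had 322 and 1219 normalised counts at 0 h and 9959 and 20011 at 6 h in the Tdg cohort. Cxcl10 in the Tet cohort had 132 and 394 at 0 h and 3648 and 12663 at 6 h. Cxcl10 rose over both cohorts (log2 fold change 4.62 ± 0.68, adjusted p = 2.45e-10). Its libraries numbered replicate 2 lay above those numbered replicate 1 in each of the 4 pairs. The 3 lower ones were Ccl6 and Ccl7, attractants of monocytes (log2 fold change -0.60 and -0.79), and Cxcl14 (-0.81). The call of Ccl7 was lost without the 6 h library of Tdg replicate 1 (adjusted p = 0.0834) or 2 (0.0653), and that of Cxcl14 in 6 of the 8 fits with a library left out (adjusted p = 0.0651 to 0.205). The monocyte attractant Ccl2 was abundant at both times (5222, 5548, 7864 and 7573 at 0 h and 3607, 4412, 7060.4 and 7769 at 6 h) and gave no call (log2 fold change -0.24 ± 0.14, adjusted p = 0.203), except with total counts as the scaling (0.026). Ccl5, a T cell and monocyte attractant, had 3247 and 27881 normalised counts at 0 h and 8946 and 29852 at 6 h in the Tdg cohort. Ccl5 in the Tet cohort had 5118 and 6945 at 0 h and 10644 and 17404 at 6 h. The 0 h library that stood apart was above 3 of the 4 libraries at 6 h. The gene was not called with all libraries (log2 fold change 0.77 ± 0.68, adjusted p = 0.445) and was called without that library (log2 fold change 1.72, adjusted p = 0.0348) and with the replicate number as a block (adjusted p = 1.02e-04).

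Among the receptors for chemokines and other attractants, 5 of 19 tested members were called higher and 8 lower, with a median of -0.46. Ccr2, the receptor that lets monocytes follow CCL2, fell from 1627 and 1238 to 603 and 428 in the Tdg cohort and from 154 and 144 to 42.5 and 62.6 in the Tet cohort (log2 fold change -1.49 ± 0.20, adjusted p = 2.98e-12). Its level was higher in the Tdg cohort at both times, and its log2 fold changes lay side by side (-1.48 and -1.51, difference -0.03 ± 0.44, SE). P2ry12, a nucleotide receptor, fell by 2.22 on the log2 scale. In the other direction Ccrl2, an atypical receptor that binds chemerin, rose by 3.73.

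Calls among the interferon-linked genes were mostly increases, and several changed with the library that stood apart. Of the interferon-inducible GTPases, which attack the vacuoles of intracellular microbes, 10 of 11 tested members were called higher and 0 lower. Their median log2 fold change was 1.99 in the Tdg and 2.01 in the Tet cohort. edgeR gave 10 and 0, and DESeq2 gave 11 and 0 without the 0 h library of Tdg replicate 2. Gbp5 went from 196 and 297 to 2541 and 8394 in the Tdg cohort and from 149 and 246 to 2413 and 6231 in the Tet cohort, with no overlap (log2 fold change 4.46 ± 0.40, adjusted p = 6.46e-27). The genes of this family are near copies of each other and read pairs that aligned to several places were tallied apart, so the counts of single members are uncertain.

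Of the antiviral genes induced by interferon, 21 of 36 tested members were called higher and 0 lower. edgeR gave 17 and 0, and DESeq2 gave 25 and 0 without the 0 h library of Tdg replicate 2. Rsad2, which encodes the antiviral enzyme viperin, had 5498 and 17806 normalised counts at 0 h and 15994 and 47379 at 6 h in the Tdg cohort. Rsad2 in the Tet cohort had 4273 and 7411 at 0 h and 13506 and 33140 at 6 h. In the Tdg cohort the higher 0 h library lay above the lower 6 h library, and in the Tet cohort the times did not overlap (log2 fold change 1.72 ± 0.45, adjusted p = 9.74e-04, and adjusted p = 0.215 without the 6 h library of Tdg replicate 2). Ifit1, which binds foreign RNA, showed the same arrangement (log2 fold change 1.45 ± 0.39, adjusted p = 0.00139). It had 4122 and 12205 normalised counts at 0 h and 11306 and 25986 at 6 h in the Tdg cohort. Ifit1 in the Tet cohort had 4298 and 6754 at 0 h and 12592 and 23284 at 6 h. Mx1 had 1923, 2879, 1506 and 2853 at 0 h and 4711, 12847, 3522 and 9850.3 at 6 h normalised counts (log2 fold change 1.74 ± 0.39). Isg15, the ubiquitin-like modifier, just missed the threshold (log2 fold change 1.04 ± 0.42, adjusted p = 0.0524) with 2907 and 11541 normalised counts at 0 h and 7325 and 15417 at 6 h in the Tdg cohort. Isg15 in the Tet cohort had 1981 and 3228 at 0 h and 5095 and 8968 at 6 h. Without the 0 h library of Tdg replicate 2 it was called (log2 fold change 1.64, adjusted p = 3.48e-07), as it was with the replicate block (adjusted p = 1.37e-07) and without the 6 h library of Tdg replicate 1 (0.0168). Irf7, the factor that amplifies interferon transcription, was abundant at 0 h and its values overlapped between times (13817, 22320, 12786 and 16213 at 0 h and 14890, 25862, 12198 and 17996 at 6 h, log2 fold change 0.12 ± 0.25, adjusted p = 0.778). Irf1 rose (log2 fold change 1.34 ± 0.24, adjusted p = 5.9e-07) and Irf8, a myeloid lineage factor of the same family, fell (log2 fold change -0.50 ± 0.12, adjusted p = 1.72e-04).

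Interferon-beta itself was low. Ifnb1 had 13.1 and 178 normalised counts at 0 h and 39.6 and 73.8 at 6 h in the Tdg cohort. Ifnb1 in the Tet cohort had 10.1 and 18.5 at 0 h and 3.04 and 25.2 at 6 h. The highest value of all was in the 0 h library of Tdg replicate 2, and no difference between times was detectable with it (log2 fold change -0.39 ± 0.76, adjusted p = 0.759) or without it (log2 fold change 0.74, adjusted p = 0.467). The receptor subunit Ifnar1 rose from 3449 ± 335 to 6079 ± 508 normalised counts (SD, n = 4; log2 fold change 0.82 ± 0.12, adjusted p = 1.15e-09), and Ifngr2, a subunit of the receptor for interferon-gamma, by 0.61.

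**Figure D3:**
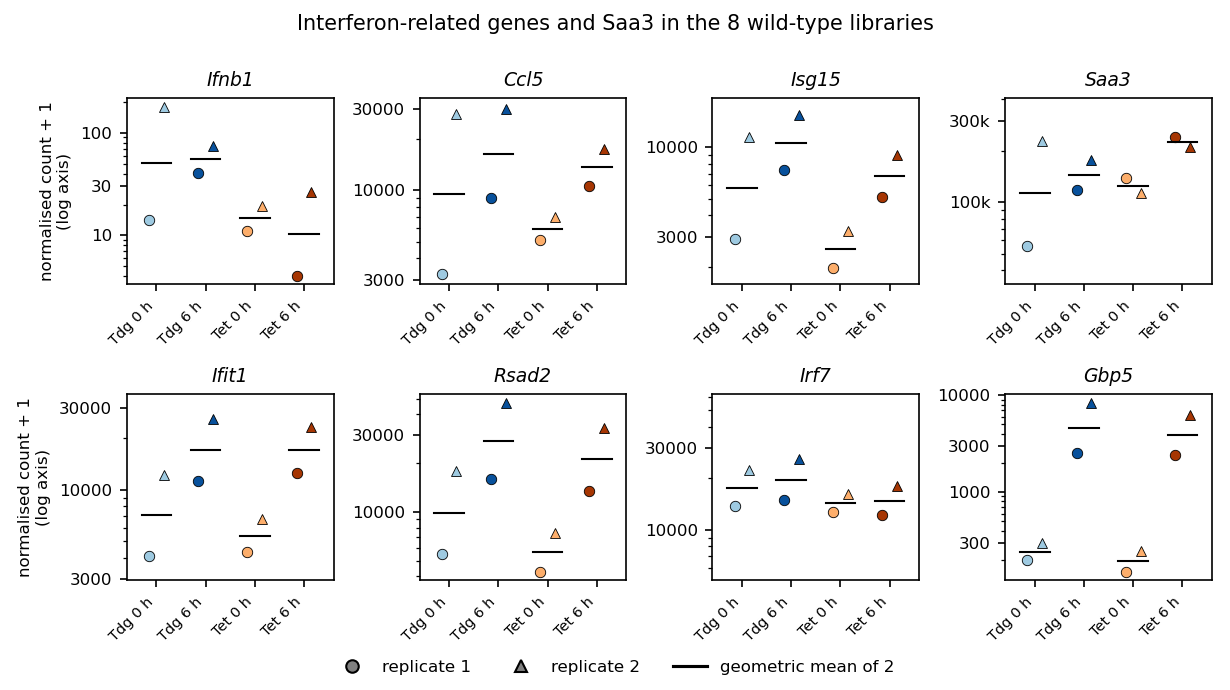
Normalised count plus 1 (log axis, scaled per panel) of 7 interferon-linked genes and of Saa3, a serum amyloid A gene, in the 8 wild-type libraries, with circles for replicate 1, triangles for replicate 2 and a bar for their geometric mean. The 0 h triangle of the Tdg cohort lies above at least 1 of the 6 h points of its cohort in every panel but that of Gbp5. For Gbp5 it is near the other 0 h points.

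Since inflammatory and interferon-linked genes rose side by side, the DNA in front of their start sites was searched for 3 motifs on both strands, in the 250 bases before each start site in a RefSeq promoter table (GRCm38.p6): the NF-kB motif GGGANTTTCC, the interferon-stimulated response element GAAANNGAAA and the AP-1 motif TGANTCA. Promoters were found for 1296 of the 1592 genes called higher. The NF-kB motif stood in 1% of these, against 0.507% of the 9474 tested genes found and 0.414% of all 27025 genes of the table. The response element stood in 5.86%, 3.4% and 3.46% in the same order, and the AP-1 motif in 6.94%, 5.57% and 7.82%. These shares are descriptions, and a match is not a site in use. Of the genes called lower, 1144 of 1441 were in the table, with shares of 0.35%, 2.01% and 7.6%. Promoters were missing for part of both sets, and differences between the shares were not tested. The AP-1 motif stood in a smaller share of the genes called higher (6.94%) than of those called lower (7.6%). Of 60 lead genes of the lists that were called higher, 44 were in the table and 10 had a match. The 5 with the largest increases are printed, to show which motif lies in front of which gene, 5′ to 3′ along the gene and ending at the base before its start site, with matches in capitals.

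The Il6 window (chr5:30012864-30013113, GRCm38.p6, plus strand) holds an AP-1 match from -249 to -243 and an NF-kB match from -44 to -35, counted from the start site. That of Cxcl10 (chr5:92348890-92349139, minus strand) holds a response element from -213 to -204 and an AP-1 match from -74 to -68. It also holds gggaaattcc and gggacttccc, which resemble the NF-kB motif but do not match the pattern searched. That of Cxcl2 (chr5:90903649-90903898, plus strand) holds an NF-kB match from -97 to -88. Tnfrsf1b, a receptor for tumour necrosis factor (chr4:145246871-145247120, minus strand), has a response element on the opposite strand from -10 to -1. Gbp2 (chr3:142620413-142620662, plus strand) has an AP-1 match from -102 to -96 and a response element on the opposite strand from -59 to -50.
Il6: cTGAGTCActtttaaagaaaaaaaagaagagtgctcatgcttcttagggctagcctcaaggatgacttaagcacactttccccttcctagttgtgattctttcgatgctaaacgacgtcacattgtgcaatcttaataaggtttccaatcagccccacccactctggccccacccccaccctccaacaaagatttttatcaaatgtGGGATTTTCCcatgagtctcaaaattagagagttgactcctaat
Cxcl10: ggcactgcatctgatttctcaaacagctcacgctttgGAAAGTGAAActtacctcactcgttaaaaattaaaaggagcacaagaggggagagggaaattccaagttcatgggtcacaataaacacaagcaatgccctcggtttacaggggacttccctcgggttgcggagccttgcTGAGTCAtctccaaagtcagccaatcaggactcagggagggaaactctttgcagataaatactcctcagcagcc
Cxcl2: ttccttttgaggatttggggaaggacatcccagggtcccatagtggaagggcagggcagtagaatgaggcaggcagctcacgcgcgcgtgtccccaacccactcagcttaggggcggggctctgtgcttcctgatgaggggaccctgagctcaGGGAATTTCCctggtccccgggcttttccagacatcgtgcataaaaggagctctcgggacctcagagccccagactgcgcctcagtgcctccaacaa
Tnfrsf1b: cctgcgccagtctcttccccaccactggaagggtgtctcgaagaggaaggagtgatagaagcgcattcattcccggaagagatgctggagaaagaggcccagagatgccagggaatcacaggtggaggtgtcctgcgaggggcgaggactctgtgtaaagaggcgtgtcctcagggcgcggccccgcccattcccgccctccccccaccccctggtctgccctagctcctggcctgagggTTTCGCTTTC
Gbp2: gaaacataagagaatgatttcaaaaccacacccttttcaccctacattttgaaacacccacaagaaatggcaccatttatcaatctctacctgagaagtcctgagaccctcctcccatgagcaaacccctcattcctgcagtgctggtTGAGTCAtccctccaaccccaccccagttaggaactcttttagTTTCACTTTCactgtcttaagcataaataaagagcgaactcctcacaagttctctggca

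Genes of the receptor pathway itself changed in both directions. Among the Toll-like receptors and the genes of lipopolysaccharide sensing, 6 of 18 tested members were called higher and 3 lower, and the replicate block called 5 lower. Tlr4, the receptor of KLA (chr4:66488618-66591318), had 2051 and 914 normalised counts at 0 h and 783 and 767 at 6 h in the Tdg cohort. Tlr4 in the Tet cohort had 2179 and 2199 at 0 h and 1141 and 1200.3 at 6 h. It fell (log2 fold change -0.92 ± 0.24, adjusted p = 7.71e-04), and the 0 h library of Tdg replicate 2 lay below the 6 h libraries of the Tet cohort. Its co-receptor Cd14 moved the other way, from 2297 ± 1506 to 13455 ± 6579.8 normalised counts (SD, n = 4; log2 fold change 2.69 ± 0.17, adjusted p = 1.93e-56). Tlr2, which senses bacterial lipoproteins, rose by 2.61 and Tlr13, which senses bacterial ribosomal RNA, fell by 1.25. Of the adaptors and kinases below the receptors, 10 of 19 tested members were called higher and 0 lower. Myd88 rose from 1838, 2276, 1426 and 1412 to 3770.4, 4235, 2589 and 3127 normalised counts (log2 fold change 0.99 ± 0.13, adjusted p = 1.46e-12). The TRIF gene Ticam1 did not pass the test (log2 fold change 0.25 ± 0.22, adjusted p = 0.442). Traf1 had the largest increase of that list (log2 fold change 3.06 ± 0.29).

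The NF-kB family was the list with the largest share of calls: 15 of 16 tested members were called higher and 0 lower, and edgeR called the same numbers. Chuk, the kinase IKK-alpha, was the remaining gene (log2 fold change 0.21). The precursor subunits Nfkb1 (939, 667, 1191 and 1111 at 0 h and 3882, 4938, 3144 and 3776 at 6 h, log2 fold change 2.02 ± 0.23) and Nfkb2 (2.50 ± 0.24) rose more than the transactivating subunit Rela (0.87 ± 0.19), a difference between genes that was not tested. Nfkbia, the inhibitor that holds NF-kB in the cytoplasm and is itself an NF-kB target, had 1550.3 and 4082 normalised counts at 0 h and 9252 and 10195 at 6 h in the Tdg cohort. Nfkbia in the Tet cohort had 1597 and 1678 at 0 h and 7454 and 8529.7 at 6 h. Nfkbia rose over both cohorts (log2 fold change 2.04 ± 0.28, adjusted p = 8.48e-12). The 0 h library of Tdg replicate 2 held more Nfkbia than the other 0 h libraries and less than any 6 h library.

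Of the negative feedback regulators, 18 of 27 tested members were called higher and 2 lower (edgeR 18 and 1, median 1.58). Socs3, which blocks signalling from cytokine receptors, had 212 and 173 normalised counts at 0 h and 4417 and 5315 at 6 h in the Tdg cohort. Socs3 in the Tet cohort had 279 and 228 at 0 h and 4266 and 4636 at 6 h. Socs3 rose over both cohorts (log2 fold change 4.38 ± 0.17, adjusted p = 8e-135), with a small spread within each time. Pde4b, a phosphodiesterase that breaks down cyclic AMP, rose by 3.56, Tnfaip3, the ubiquitin-editing enzyme A20, by 1.88, and Zc3h12a, the ribonuclease Regnase-1 that degrades cytokine messages, by 1.74. Dusp6, a phosphatase of ERK, fell by 0.75.

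Among AP-1, EGR and other immediate-early factors, 11 of 26 tested members were called higher and 2 lower. Batf, an AP-1 partner of interferon regulatory factors, rose from 78.5, 162, 123 and 117 to 300.2, 540.3, 461 and 453 normalised counts (log2 fold change 1.89 ± 0.27, adjusted p = 5.32e-11). So did Maff (3.14 ± 0.36). Jun fell from 2063, 2448, 2739.7 and 2852 to 1133, 1083, 1743 and 1349.9 normalised counts (log2 fold change -0.94 ± 0.14, adjusted p = 2.51e-10). Fos (log2 fold change -0.28 ± 0.24, adjusted p = 0.445) and Egr1 (log2 fold change 0.27 ± 0.53, adjusted p = 0.763) did not pass the test. Egr1 was at 13.3 in the 0 h library of Tdg replicate 2 and at 184, 327 and 307 in the other 0 h libraries.

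Genes of nitric oxide, arginine and itaconate metabolism included several of the largest increases: 7 of 14 tested members were called higher and 0 lower (6 and 1 without the 0 h library of Tdg replicate 2). Nos2, the inducible nitric oxide synthase (chr11:78734289-78773756), had 8.72 and 15.9 normalised counts at 0 h and 484 and 3062 at 6 h in the Tdg cohort. Nos2 in the Tet cohort had 27.1 and 43.1 at 0 h and 987 and 2651 at 6 h. At 6 h replicate 2 held more than replicate 1 in both cohorts, and every 6 h library was above every 0 h library (log2 fold change 6.40 ± 0.75, adjusted p = 4.36e-16, and 5.60 on the log2 scale without the 6 h library of Tdg replicate 2). Slc7a2, which takes up arginine, its substrate, rose by 4.95 ± 0.33 on the log2 scale. Arg1, the arginase that competes for arginine, did not pass the test (94.9, 55.8, 54.9 and 34.7 at 0 h and 91.4, 61, 85 and 55.3 at 6 h, log2 fold change 0.32 ± 0.34, adjusted p = 0.529). Irg1 (also known as Acod1), the enzyme that makes itaconate, went from 3739.6 ± 939 to 55996 ± 13256 normalised counts (SD, n = 4; log2 fold change 3.88 ± 0.23, adjusted p = 5.09e-59), a gain of 3952 CPM. Slc7a11, the cystine importer, had 77.4 and 55.8 normalised counts at 0 h and 2784 and 2574 at 6 h in the Tdg cohort. Slc7a11 in the Tet cohort had 50.3 and 83.4 at 0 h and 2108 and 2828 at 6 h. Slc7a11 rose over both cohorts (log2 fold change 5.24 ± 0.21, adjusted p = 4.71e-128), by 5.29 in the Tdg and 5.20 in the Tet cohort.

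Of the genes of glycolysis and glucose uptake, 12 of 21 tested members were called higher and 0 lower. edgeR gave 9 and 0, and DESeq2 gave 11 and 0 without the 0 h library of Tdg replicate 2. The glucose transporter Slc2a1 (966, 449, 587 and 480.1 at 0 h and 2842, 2349, 1879.9 and 1751 at 6 h, log2 fold change 1.82 ± 0.24), its lysosomal relative Slc2a6 (3.74 ± 0.33), hexokinase 2 (Hk2, 0.84 ± 0.10) and the regulatory enzyme Pfkfb3 (1.32 ± 0.22) rose. Ldha, lactate dehydrogenase A, did not pass the test (log2 fold change 0.25 ± 0.12, adjusted p = 0.108). Of the enzymes of the mitochondrial citric acid cycle 1 of 22 was called higher and 4 lower, against 13.5% and 12.2% of all tested genes. One of them was Idh2, mitochondrial isocitrate dehydrogenase, which fell from 923, 744, 765 and 813 to 535, 401, 475 and 397 normalised counts (log2 fold change -0.85 ± 0.16, adjusted p = 1.29e-06).

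In prostaglandin and leukotriene synthesis, 6 of 16 tested members were called higher and 5 lower. Ptgs2, the inducible cyclooxygenase (chr1:151947254-151955140), had 30.5 and 37.2 normalised counts at 0 h and 2584 and 2938 at 6 h in the Tdg cohort. Ptgs2 in the Tet cohort had 15.5 and 12.9 at 0 h and 919.8 and 1612 at 6 h. Ptgs2 rose over both cohorts (log2 fold change 6.44 ± 0.27, adjusted p = 8.2e-125). Ptges, the synthase that makes prostaglandin E2 from its product, rose by 4.88 ± 0.29, and Ptgir, the prostacyclin receptor, by 1.80 ± 0.18. Hpgds, which makes prostaglandin D2, fell with no overlap between times (2194, 2045, 1894 and 2025 at 0 h and 1003, 959, 874 and 925 at 6 h, log2 fold change -1.12 ± 0.10, adjusted p = 1.86e-28). The median of the list was -0.03.

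Of the genes of oxidative stress and its main regulator NRF2, 13 of 27 tested members were called higher and 3 lower. Sod2, the mitochondrial superoxide dismutase (2.86 ± 0.22), and Cybb, the membrane subunit of the phagocyte oxidase (10060, 8177, 11994 and 11349 at 0 h and 38234, 44950, 47999 and 54516 at 6 h, 2.16 ± 0.13), rose with Gclm (0.81 ± 0.19), a subunit of the enzyme that starts glutathione synthesis. The metallothionein Mt2 fell (log2 fold change -1.12 ± 0.30, adjusted p = 0.00167). Among the genes of iron handling 4 of 15 were called higher and 2 lower (4 and 4 without the 0 h library of Tdg replicate 2), against 13.5% and 12.2% of all tested genes. Lcn2, which binds bacterial siderophores, rose from 494, 1229.5, 209 and 157 to 1594, 1823, 968 and 951 normalised counts (log2 fold change 1.69 ± 0.35, adjusted p = 1.47e-05). The ferroxidase Cp rose too (2.10 ± 0.23), and the ferrireductase Steap3 fell (log2 fold change -1.94 ± 0.20, adjusted p = 5.05e-21).

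The largest increases that were in none of these groups were those of Edn1, Zfp811, a zinc finger gene (5.84 ± 0.46), Rasgrp1 and Serpinb2. Edn1, the vasoconstrictor endothelin-1, had 3.27 and 0 normalised counts at 0 h and 304 and 578 at 6 h in the Tdg cohort. Edn1 in the Tet cohort had 6.19 and 0.56 at 0 h and 181 and 283 at 6 h. Edn1 rose over both cohorts (log2 fold change 6.77 ± 0.60, adjusted p = 1.79e-27), and the log2 fold change was 7.97 without the 0 h library of Tet replicate 1. Rasgrp1, an exchange factor for Ras, had 24 and 69 normalised counts at 0 h and 1219 and 2547 at 6 h in the Tdg cohort. Rasgrp1 in the Tet cohort had 17.8 and 32.5 at 0 h and 1278 and 2066 at 6 h. Rasgrp1 rose over both cohorts (log2 fold change 5.74 ± 0.38, adjusted p = 9.9e-50). Serpinb2, an inhibitor of plasminogen activators, rose by 5.09 ± 0.37, while Plau, the urokinase it inhibits, fell from 4478, 1654, 3759 and 3932 to 510.4, 396, 971 and 1186 normalised counts (log2 fold change -2.29 ± 0.32, adjusted p = 1.69e-11). By CPM the 5 largest gains with all libraries were those of Irg1, Clec4e, the receptor Mincle for mycobacterial glycolipid (from 239.6 to 4133), Saa3 (from 10800 to 14216), Cybb and Tnfrsf1b. Without the 0 h library of Tdg replicate 2 the gain of Saa3 came first (5583 CPM, against 3970.2 for Irg1 and 3864 for Clec4e). Saa3 was not called with all libraries (log2 fold change 0.45 ± 0.38, adjusted p = 0.423), with 55578 and 228930 normalised counts at 0 h and 117960 and 177870 at 6 h in the Tdg cohort. Saa3 in the Tet cohort had 138100 and 113850 at 0 h and 241840 and 209570 at 6 h. The 0 h library of Tdg replicate 2 thus lay above all but 1 of the others. Saa3 was called without that library (log2 fold change 1.06, adjusted p = 2.98e-07) and with the replicate block (adjusted p = 0.0367).

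The decreases reached similar sizes. Eps8, an actin-binding signalling adaptor (chr6:137425766-137603397), had 594 and 247 normalised counts at 0 h and 19.1 and 21 at 6 h in the Tdg cohort. Eps8 in the Tet cohort had 550.3 and 679.9 at 0 h and 19 and 26 at 6 h. Eps8 fell over both cohorts (log2 fold change -4.60 ± 0.33, adjusted p = 6.54e-43), with no overlap between times. Rnf150, a ubiquitin ligase of the membrane, had 1107 and 953 normalised counts at 0 h and 73.7 and 36.4 at 6 h in the Tdg cohort. Rnf150 in the Tet cohort had 1699.5 and 1459 at 0 h and 56.2 and 54.5 at 6 h. Rnf150 fell over both cohorts (log2 fold change -4.56 ± 0.24, adjusted p = 2.28e-80). St6gal1, which adds sialic acid to glycoproteins (-3.78 ± 0.38), the chromatin protein Hmga2 (-3.39 ± 0.35) and the secreted Angptl2 (-3.30 ± 0.25) were among the 12 with the largest decreases. So was the glycosyltransferase Gcnt1 (-2.92 ± 0.30). None of the 12 overlapped between times within a cohort, which the choice of these genes required.

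Cell cycle and DNA replication genes had the lowest median log2 fold change of all lists (-0.70, -0.94 in the Tdg and -0.47 in the Tet cohort). Of these genes, 1 of 49 tested was called higher and 14 lower. edgeR gave 1 and 11, and DESeq2 gave 1 and 23 without the 0 h library of Tdg replicate 2, and the replicate block called 1 and 25. Ccnd1, the cyclin that starts the G1 phase (chr7:152115836-152125774), had 5309.5 and 3609 normalised counts at 0 h and 1191 and 439 at 6 h in the Tdg cohort. Ccnd1 in the Tet cohort had 1606 and 1589 at 0 h and 224 and 242 at 6 h. Ccnd1 fell over both cohorts (log2 fold change -2.62 ± 0.29, adjusted p = 2.07e-17). E2f2, a factor that drives S-phase genes, fell from 162, 247, 75.1 and 88.4 to 46.4, 41, 21.2 and 22.8 normalised counts (log2 fold change -2.06 ± 0.26, adjusted p = 4.96e-14). Cdkn1a, the p21 inhibitor, was the member that rose, from 3770.1, 3625, 4137 and 3339 to 6543, 6784, 5672 and 5292 normalised counts (log2 fold change 0.70 ± 0.13, adjusted p = 1.1e-06). Mki67, the proliferation marker, had 526 and 313 normalised counts at 0 h and 568 and 291 at 6 h in the Tdg cohort. Mki67 in the Tet cohort had 129 and 131 at 0 h and 275 and 339.9 at 6 h. Mki67 did not pass the test over both cohorts (log2 fold change 0.63 ± 0.33, adjusted p = 0.156), but was called higher without the 0 h library of Tdg replicate 1 (adjusted p = 0.0103) or the 6 h library of Tdg replicate 2 (0.00806). Ccnb1, cyclin B1, had 128, 82.3, 20.1 and 27.4 at 0 h and 106, 25.5, 19.7 and 22.8 at 6 h (log2 fold change -0.44 ± 0.45, adjusted p = 0.521).

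Of the lysosome and autophagy genes, 2 of 30 tested members were called higher and 13 lower, with a median of -0.24. edgeR gave 1 and 9, and DESeq2 gave 3 and 16 without the 0 h library of Tdg replicate 2. The cathepsins Ctsb, Ctsd and Ctsl, proteases of the lysosome, had the 3 largest losses in CPM with all libraries, and stayed among the 5 largest without the 0 h library of Tdg replicate 2. Ctsd fell from 128680, 148530, 156220 and 150890 to 88547, 93514, 127360 and 120770 normalised counts (log2 fold change -0.46 ± 0.12, adjusted p = 9.23e-04). Ctsl fell from 77112, 88272, 104450 and 100090 to 50072, 52260, 70182 and 63432 normalised counts (log2 fold change -0.65 ± 0.10, adjusted p = 1.96e-09). Ctsd changed from 12026 to 8209 CPM and Ctsl from 7621 to 4504. Ctsb, the most abundant of them, changed from 17809 to 13783 and was called by DESeq2 (log2 fold change -0.26 ± 0.09, adjusted p = 0.0181) and not by edgeR (adjusted p = 0.0963), nor with the replicate block (0.11), nor in 7 of the 8 fits with a library left out (0.0834 to 0.155). Atp6v0d2, a subunit of the proton pump, fell by 1.39 and Ctsc, cathepsin C, rose by 0.85. Lamp1, the main lysosomal membrane protein, did not pass the test (log2 fold change -0.06 ± 0.10, adjusted p = 0.715).

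Of the genes of cholesterol efflux and targets of the receptor LXR, 2 of 20 tested members were called higher and 7 lower, and of those of cholesterol synthesis and uptake 3 of 26 were called higher and 5 lower (edgeR 2 and 3). The exporter Abca1 rose from 2458, 1187, 5559 and 4763 to 3999.6, 4239, 8089 and 7715 normalised counts (log2 fold change 0.89 ± 0.24, adjusted p = 0.00152). Its relative Abcg1 did not pass the test (log2 fold change -0.51 ± 0.30, adjusted p = 0.228), with 533 and 1110 normalised counts at 0 h and 349 and 759 at 6 h in the Tdg cohort. Abcg1 in the Tet cohort had 1506 and 1727 at 0 h and 946 and 1407 at 6 h. It was called lower with the replicate block (adjusted p = 0.00302). Ch25h, which makes the antiviral oxysterol 25-hydroxycholesterol, rose by 1.97 ± 0.21. Dhcr7, the last enzyme of cholesterol synthesis, fell by 1.29.

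Genes of macrophage identity had a median of -0.01: 7 of 25 tested members were called higher and 5 lower. Csf1r, the receptor for M-CSF, rose slightly (log2 fold change 0.52 ± 0.17, adjusted p = 0.00954). The call did not hold with total counts as the scaling (adjusted p = 0.137), without the 6 h library of Tdg replicate 1 (0.0567) or without the 0 h library of Tet replicate 1 (0.0529). Sfpi1, which encodes the lineage factor PU.1, rose by 0.85 ± 0.13. Mrc1, the mannose receptor of alternatively activated macrophages, had 2523 and 390.4 normalised counts at 0 h and 705 and 299.8 at 6 h in the Tdg cohort. Mrc1 in the Tet cohort had 4833 and 3293 at 0 h and 1531 and 1208 at 6 h. It was called lower (log2 fold change -1.55 ± 0.46, adjusted p = 0.005), although the 0 h library of Tdg replicate 2 lay below the 6 h library of replicate 1. The call did not hold without the 0 h library of Tdg replicate 1 (adjusted p = 0.0825) or the 6 h library of Tet replicate 1 (0.106).

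Of the scavenger receptors and C-type lectins, 8 of 21 tested members were called higher and 4 lower. Clec4e rose from 1504, 2021, 4161 and 3916 to 40169, 56219, 55587 and 65700 normalised counts (log2 fold change 4.34 ± 0.23, adjusted p = 1.02e-77). Olr1, a receptor for oxidised lipoprotein, rose by 4.16 ± 0.27, and Colec12 fell by 0.98. Of the Fc receptors and complement genes, 5 of 19 tested members were called higher and 4 lower (edgeR 4 and 2). Fcgr2b, the inhibitory Fc receptor, rose from 545, 839, 1201 and 1388 to 3248, 5106, 3984 and 4617 normalised counts (log2 fold change 2.16 ± 0.25, adjusted p = 7.42e-16). C3, the central complement component, rose by 1.39 ± 0.26, and C5ar2, a receptor for the complement fragment C5a, fell by 1.65. C1qa, of the first complement component, did not pass the test (log2 fold change -0.39 ± 0.24, adjusted p = 0.251). Of the adhesion genes, 8 of 20 tested members were called higher and 3 lower (8 and 5 without the 0 h library of Tdg replicate 2). Icam1 rose from 1162, 1145, 1069.6 and 1098 to 8671, 10230, 6910.2 and 8668 normalised counts (log2 fold change 2.94 ± 0.13, adjusted p = 1.33e-104). Vcam1 (2.67 ± 0.40) and the integrin chains Itgal (2.30 ± 0.26) and Itga4 (1.61 ± 0.27) rose and the laminin-binding chain Itga6 fell (-2.42 ± 0.40).

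Of the class I antigen presentation genes, 5 of 19 tested members were called higher and 0 lower (26.3% and 0%). edgeR gave 3 and 0, and DESeq2 gave 11 and 0 without the 0 h library of Tdg replicate 2, and the replicate block called 8 and 0. Tap1, the peptide transporter, rose from 2962, 4018, 2975 and 3638 to 4247, 8186, 4767 and 6624 normalised counts (log2 fold change 0.81 ± 0.24, adjusted p = 0.00439). B2m, the light chain of all class I molecules, overlapped between times (70002, 123980, 91682 and 93384 at 0 h and 76317, 98085, 94803 and 102470 at 6 h), with its highest value in the 0 h library of Tdg replicate 2. Of the class II and costimulatory genes 4 of 17 were called higher and 2 lower. Ciita, the class II master regulator, rose from a low level, 12, 5.31, 10.1 and 7.27 to 31.4, 61, 56.9 and 69.9 normalised counts (log2 fold change 2.63 ± 0.44, adjusted p = 3.29e-08). The costimulatory receptor Cd40, which was listed with the tumour necrosis factor family, rose from 195, 226, 209.7 and 227 to 1396, 3256, 1263 and 2323 normalised counts (log2 fold change 3.25 ± 0.30, adjusted p = 4.54e-25). Havcr2, which encodes the inhibitory receptor TIM-3, fell from 1318, 640.0, 782 and 839 to 255, 154, 140.4 and 183 normalised counts (log2 fold change -2.30 ± 0.27, adjusted p = 2.86e-16).

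Of the inflammasome and cell death genes, 13 of 23 tested members were called higher and 5 lower. Nlrp3, the sensor whose induction primes the inflammasome, had 359.8 and 220.4 normalised counts at 0 h and 4947 and 4483 at 6 h in the Tdg cohort. Nlrp3 in the Tet cohort had 378 and 321 at 0 h and 2891 and 3509.8 at 6 h. Nlrp3 rose over both cohorts (log2 fold change 3.59 ± 0.23, adjusted p = 1.42e-52). Casp1, which cleaves pro-interleukin-1 beta, rose by 0.89 ± 0.20, the death receptor Fas by 2.94 ± 0.15, and the survival gene Bcl2a1d by 2.97 ± 0.31, which has near-identical copies and is therefore uncertain. Bcl2, another survival gene, fell by 1.97. Of the tumour necrosis factor ligands and receptors 6 of 19 were called higher and 4 lower. Tnfrsf1b rose from 6869, 7545, 7228 and 7631 to 33903, 50625, 34114 and 36820 normalised counts (log2 fold change 2.40 ± 0.16, adjusted p = 4.97e-46). Tnfsf10, the ligand TRAIL, rose by 2.73 ± 0.45.

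Of the matrix proteases and their inhibitors, 9 of 20 tested members were called higher and 4 lower. The gelatinase gene Mmp9 rose (327, 197, 668 and 410.2 at 0 h and 909, 649, 2032 and 892 at 6 h, log2 fold change 1.50 ± 0.31, adjusted p = 1.29e-05). Bmp1, a procollagen protease, went from 5 reads in the 4 libraries at 0 h to 646 at 6 h (ratio 117 relative to library totals, exact 95% interval 50 to 362 for counting error only). Mmp13, a collagenase, was not called over both cohorts (log2 fold change 1.11 ± 0.65, adjusted p = 0.212), and was called higher without the 0 h library of Tet replicate 2 (adjusted p = 0.0385) or the 6 h library of Tet replicate 1 (0.00868). It had 346 and 436 normalised counts at 0 h and 858 and 2985 at 6 h in the Tdg cohort. Mmp13 in the Tet cohort had 994 and 1323 at 0 h and 845 and 1366 at 6 h. Rgs2, a regulator of G protein signalling, fell from 3471, 3383, 2334 and 2163 to 644, 497, 332 and 257 normalised counts (log2 fold change -2.76 ± 0.16, adjusted p = 1.98e-63), with no overlap between times. Of the p53 targets 3 of 17 were called higher and 3 lower (4 and 5 without the 0 h library of Tdg replicate 2), against the same 13.5% and 12.2%, with Sesn1 among the latter (-1.79 ± 0.22).

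The study knocked out enzymes that remove DNA methylation: TET enzymes oxidise 5-methylcytosine and thymine DNA glycosylase (TDG) excises the oxidised bases. Of the writers, readers and erasers of DNA methylation, 5 of 18 tested members were called higher and 3 lower, against 13.5% and 12.2% of all tested genes. edgeR gave 4 and 2, and DESeq2 gave 5 and 6 without the 0 h library of Tdg replicate 2. Tet2, a dioxygenase that oxidises 5-methylcytosine (chr3:133126643-133207354), had 531 and 446 normalised counts at 0 h and 1148 and 1449 at 6 h in the Tdg cohort. Tet2 in the Tet cohort had 436 and 519 at 0 h and 1073 and 1232 at 6 h. Tet2 rose over both cohorts (log2 fold change 1.34 ± 0.15, adjusted p = 8.21e-17), with all 6 h libraries above all 0 h libraries. Tet1, named after its values were seen, had 0 reads in all 4 libraries at 0 h and a mean of 8.23 normalised counts at 6 h, too few for edgeR to test. Tet3 did not pass the test over both cohorts (log2 fold change 0.17 ± 0.23, adjusted p = 0.648), with 641 and 722 normalised counts at 0 h and 805 and 1269 at 6 h in the Tdg cohort. Tet3 in the Tet cohort had 1190.3 and 1141 at 0 h and 957 and 988 at 6 h. Dnmt1, the methyltransferase that copies methylation at replication, fell from 1709.5, 1246, 1628 and 1732 to 692, 711, 967 and 877 normalised counts (log2 fold change -0.97 ± 0.15, adjusted p = 8.82e-10). Dnmt3a, a methyltransferase for new sites, fell (log2 fold change -0.47 ± 0.15, adjusted p = 0.0122), a call that 5 of the 8 fits with a library left out did not keep (adjusted p = 0.0739 to 0.122). Of the histone demethylases and chromatin regulators 8 of 22 were called higher and 3 lower. Kdm6b, the H3K27 demethylase, rose from 25.1, 47.8, 76.6 and 83.9 to 169, 229.6, 123 and 145 normalised counts (log2 fold change 1.56 ± 0.39, adjusted p = 5.15e-04). The repressor Prdm1 rose too (2.20 ± 0.18), and the deacetylase gene Hdac9 fell (318, 215, 160.2 and 129.8 at 0 h and 87.3, 70.2, 47.1 and 52.9 at 6 h, log2 fold change -1.66 ± 0.23, adjusted p = 6.11e-12).

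The study examined DNA modification at enhancers near a small set of genes. Of 6 genes of it, Batf, Il1b, Il6 and Ptgs2 rose as given above. Alcam, an adhesion molecule, had 2443 and 1827 normalised counts at 0 h and 1891 and 3273 at 6 h in the Tdg cohort. Alcam in the Tet cohort had 2550.1 and 2550 at 0 h and 2370.2 and 2815 at 6 h. Alcam did not pass the test over both cohorts (log2 fold change 0.15 ± 0.21, adjusted p = 0.654). Mdfic, an inhibitor of MyoD family factors, had 3421 and 2884 normalised counts at 0 h and 3139.9 and 4173 at 6 h in the Tdg cohort. Mdfic in the Tet cohort had 3776 and 4112 at 0 h and 2848 and 3484 at 6 h. Mdfic did not pass the test over both cohorts (log2 fold change -0.05 ± 0.18, adjusted p = 0.864). The values of Alcam overlapped between times in both cohorts, and those of Mdfic in the Tdg cohort.

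Cytosolic ribosomal proteins and nuclear-encoded subunits of oxidative phosphorylation held 0 calls among 30 and 28 tested members by DESeq2, and 0 by edgeR (0 and 1 by DESeq2 without the 0 h library of Tdg replicate 2). At an unadjusted p below 0.05 DESeq2 had 0 and 3 and edgeR 0 and 1. Their medians differed between cohorts: -0.49 and -0.49 in the Tdg cohort against 0.05 and 0.02 in the Tet cohort. Without the 0 h library of Tdg replicate 2 the Tdg medians were -0.04 and -0.09.

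**Figure D4:**
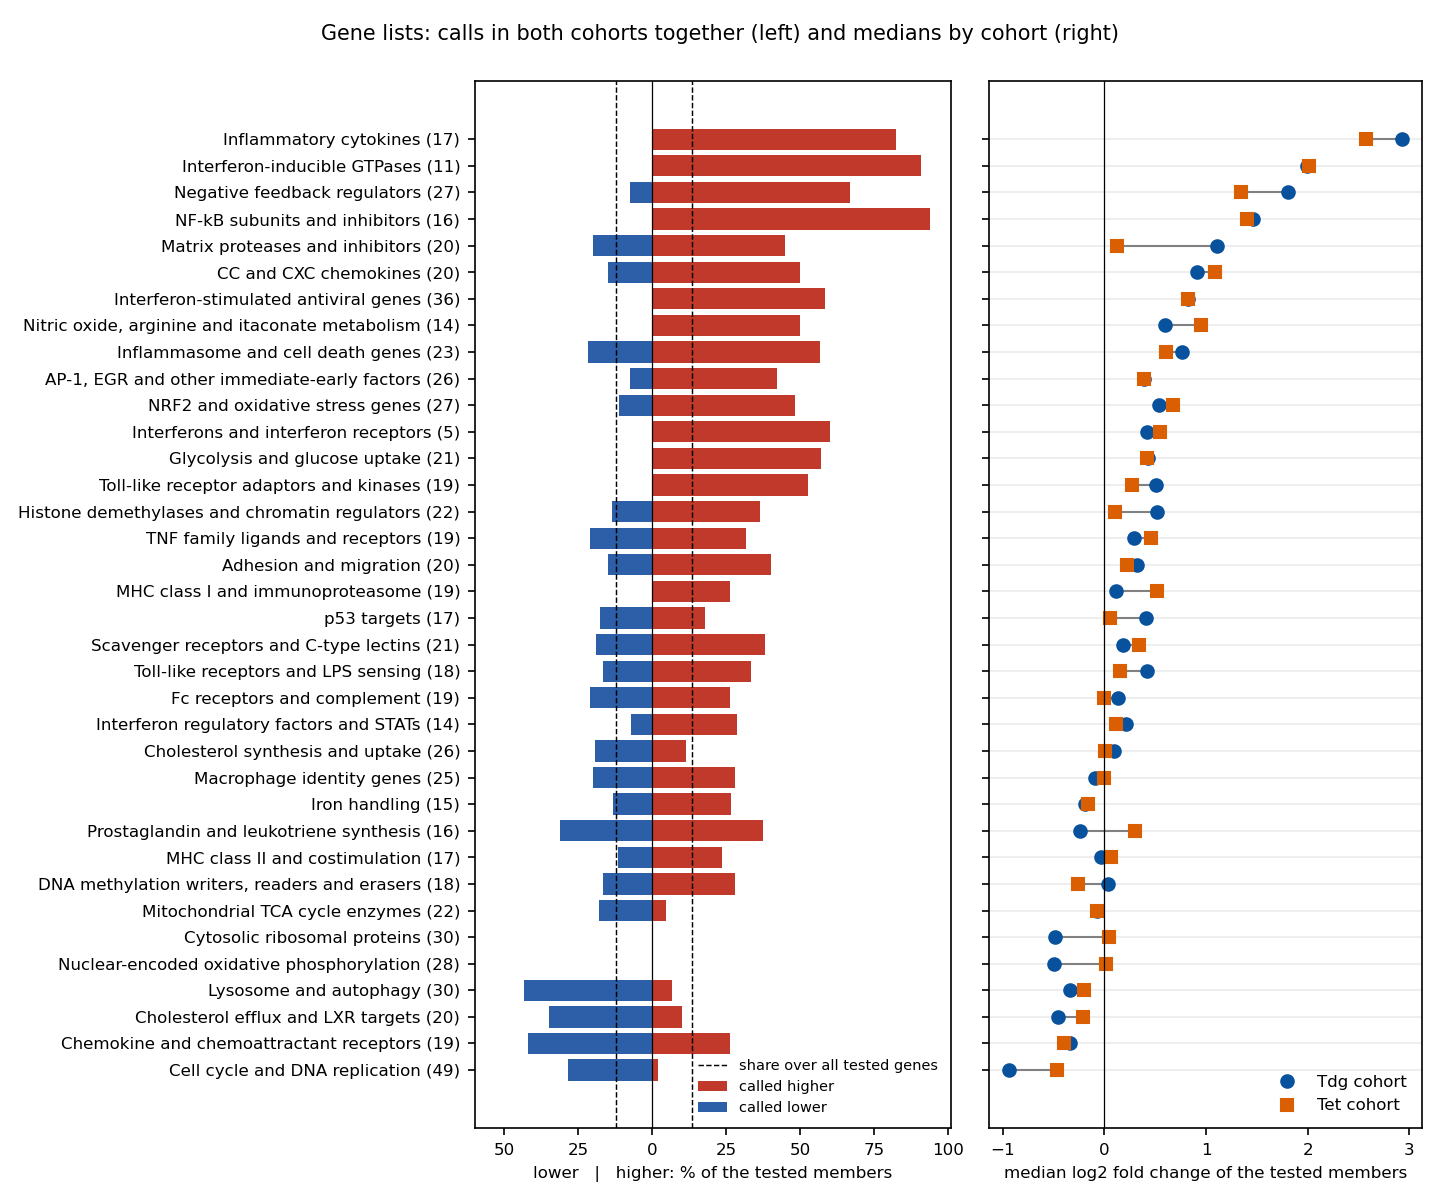
Gene lists ordered by their median log2 fold change over both cohorts, with the number of tested members in brackets: on the left the percentage of tested members called higher (red) or lower (blue), with dashed lines at the shares of all tested genes (13.5% and 12.2%), and on the right the median log2 fold change in the Tdg cohort (circles) and the Tet cohort (squares). Cytokines, interferon-inducible GTPases and the NF-kB family lie to the right in both cohorts, and cell cycle genes to the left.

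Whether the cohorts differed in their response was tested by the difference of their KLA effects. DESeq2 called 2 of 14914 genes (0.0134%), and 302 had an unadjusted p below 0.05. edgeR called 0, with 278 at an unadjusted p below 0.05. Il1b rose more in the Tet cohort (log2 fold change 6.56 ± 0.30) than in the Tdg cohort (4.50 ± 0.25, SE), a difference of 2.06 ± 0.39 (adjusted p = 0.00146 by DESeq2 and 0.983 by edgeR). Its 6 h level was nevertheless lower in the Tet cohort, and the 0 h level lower still. With all 16 BMDM libraries in the DESeq2 fit, the difference of Il1b was not called. Ppp1ca, a catalytic subunit of protein phosphatase 1, had 12 and 13.3 normalised counts at 0 h and 8.19 and 15.5 at 6 h in the Tdg cohort. Ppp1ca in the Tet cohort had 78.9 and 73.3 at 0 h and 1.52 and 2.44 at 6 h. The gene had at most 131 reads in any library, and its responses differed by -5.23 ± 1.13 on the log2 scale (adjusted p = 0.0269 by DESeq2). With the replicate number as a block 8 genes were called. Besides Il1b they held Mmp13, with the values given above, and, named here after their values were seen, Atn1, Cd38, Fscn1, Hnrnpu, Mat2a and Psmd10. Cd38, an NAD-degrading ectoenzyme, had 61.1 and 104 normalised counts at 0 h and 1692 and 2735 at 6 h in the Tdg cohort. Cd38 in the Tet cohort had 716 and 618 at 0 h and 5341 and 5651 at 6 h. Fscn1, the actin-bundling fascin, had 102 and 79.7 normalised counts at 0 h and 434 and 603 at 6 h in the Tdg cohort. Fscn1 in the Tet cohort had 0 and 1.12 at 0 h and 109 and 120.3 at 6 h. Atn1 had 79.6 and 207 normalised counts at 0 h and 458 and 903 at 6 h in the Tdg cohort. Atn1 in the Tet cohort had 413 and 466 at 0 h and 612 and 693 at 6 h. The other 3 were low in most libraries and differed between replicates of a group: the Tet replicates held 1.55 and 308 normalised counts of Hnrnpu at 0 h, 47.2 and 2.24 of Mat2a at 0 h, and 0.759 and 203 of Psmd10 at 6 h. The number called rested on the Tdg libraries: it was 1799 without the 0 h library of replicate 1, when the library that stands apart is the only one at 0 h, and 79 without that of replicate 2.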

How the data were processed

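The authors deposited whole-number read counts per gene symbol for each library, made from paired-end, poly(A)-selected, strand-marking libraries aligned to mm9 with HISAT2 and counted with HTSeq. Versions, annotation and strand setting are not given in the sources used here, so a gene and its antisense partner may share reads. The 5 rows without a gene (32.8% to 46.6% of read pairs) were left out.

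The 8 libraries were fitted with DESeq2 (version 1.42.0, Wald test, cohort as a term, Benjamini-Hochberg adjustment, threshold 0.05), with KLA nested in cohort for the effect of each cohort and their difference. edgeR (version 4.0.16, quasi-likelihood) on genes kept by its own expression filter was an alternative. So were other scalings, other filters in DESeq2 (such as at least 10 counts in 2 libraries) and each library left out. On simulated counts DESeq2 made more false calls than its threshold allows and edgeR stayed near it, so both are given. Normalised counts are counts divided by DESeq2 size factors. Same-numbered libraries deviated together (r = 0.335 and 0.414), and the labels' replicate numbers were used as a block in an alternative. Replicates differed by more than sampling noise. Gene coordinates come from the NCBIM37 (mm9) annotation.

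Named genes were the lead genes of each list, the 12 largest called increases and decreases of a mean of at least 100 that did not overlap within a cohort, the most changed called member per list (mean of at least 50), the 5 largest gains and losses in CPM (counts scaled to the library total), the genes whose cohorts differed and the enhancer genes of the study. Only part of them is described, and some results are not reported here. The members and gene lists were chosen with earlier results of these data known.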

Additional observations from a re-analysis of the deposited data

Results flagged for a closer look

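The KLA responses of the cohorts differed by the test of the difference itself for 2 genes, with DESeq2 on the 8 libraries. For Il1b the log2 fold change in the Tet cohort exceeded that in the Tdg cohort by 2.06 (DESeq2 adjusted p = 0.00146, with the replicate block 0.0112, edgeR 0.983). With all 16 BMDM libraries 2 genes were called, 0 of them with a positive difference, so Il1b was not among them. The 0 h libraries of the Tdg cohort held 166 and 167 normalised counts and those of the Tet cohort 24 and 13.4. The 6 h libraries held 3933 and 3604 against 1634 and 1802. As a ratio, though not in counts, the cohorts thus lay further apart at rest than after KLA. For Ppp1ca the difference was -5.23 (adjusted p = 0.0269, with the replicate block 0.192, edgeR 0.983), from 78.9 and 73.3 to 1.52 and 2.44 normalised counts in the Tet cohort. In the Tdg cohort the gene stayed between 8.19 and 15.5. With 2 libraries per cohort and time, single outlying libraries could not be tested for.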

How the results depend on the processing

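The count of called genes over both cohorts (3033) lay between 2375 and 3300 with edgeR, other scalings and filters, the replicate block (2994), all 16 BMDM libraries or no cohort term. It was 817 in the Tdg cohort alone and 2131 to 3753 with 1 library left out. In the nested fits edgeR called 1184 genes in the Tdg and 790 in the Tet cohort, 1184 and 789 of them called by both tests. The libraries of a cohort alone gave 817 and 2583. With 1 library left out the Tdg count (1919) ran from 745 without the 6 h library of Tdg replicate 2 to 4342 without the 0 h library of replicate 1, and was 1265 without the 0 h library of Tet replicate 2. The Tet count (1281) ran from 553 without the 6 h library of Tet replicate 2 to 2052 without the 0 h library of Tdg replicate 2, and was 591 and 560 without the 0 h libraries of Tet replicates 1 and 2, 733 without the 6 h library of replicate 1 and 1945 without the 0 h library of Tdg replicate 1. Where a library was left out, the lone sample was assumed to vary like the others. The 2 genes whose cohorts differed became 0 with edgeR, 0 by both tests and 8 with the replicate block, and 0 to 1799 with 1 library left out (5 without the 6 h library of Tdg replicate 1, 1 without that of Tet replicate 1, and 0 without that of Tdg replicate 2). The causes were not tested.

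Of the genes named above and called over both cohorts, edgeR kept 119 of 122, the fit without a cohort term 111 of 123, the Tdg cohort alone 87 and the Tet cohort alone 118, and no called gene changed sign under any alternative. The replicate block changed no other call than those given beside the genes above. With total counts as the scaling, 5 chemokines, 5 Toll-like receptor and lipopolysaccharide sensing genes and 4 oxidative phosphorylation genes were called lower (3, 3 and 0 before). In the other direction, 4 macrophage identity and 3 Fc receptor and complement genes were called higher (7 and 5 before). Genes whose sign turned were ones without a call over both cohorts: B2m (0.095), Mmp13 (-0.0648) and Tet3 (-0.26) in the Tet cohort alone, Mdfic (0.22), Hnrnpu (0.21), Mat2a (2.40) and Psmd10 (-3.44) in the Tdg cohort alone, Mat2a (0.17) and Psmd10 (-0.0391) with the replicate block, Mat2a without a cohort term (1.28), and, over the fits with a library left out, Alcam (-0.0533 to 0.27), B2m (-0.16 to 0.18), Egr1 (-0.0908 to 1.02), Hnrnpu (-4.49 to 0.34), Ifnb1 (-1.20 to 0.74), Irf7 (-0.072 to 0.25), Mat2a (-2.38 to 1.55), Mdfic (-0.19 to 0.0613), Psmd10 (-2.80 to 6.54) and Tet3 (-0.0607 to 0.28).

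The depth of the shallowest library and 2 libraries per cohort and time limit what could be called for low genes, and counting intervals cover counting error only. DESeq2 called 661 genes that edgeR did not, and these rest on 1 test.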

Other observations

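In each of the 4 pairs of libraries that share cohort and time, replicate 2 held more than replicate 1 for 30 of 36 tested antiviral interferon-stimulated genes, 10 of 11 interferon-inducible GTPases and 15 of 19 class I and immunoproteasome genes. Over all 11829 tested genes this held for 1351 (11.4%). The opposite order in all 4 pairs was seen for 8 of 21 genes of glycolysis and glucose uptake, against 1100 of all tested genes (9.3%). The pattern was noticed in the data and carries no test. The labels say nothing of what the replicate numbers stand for.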
